A study of Mus musculus with 14 samples.

Results

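The genes described here were the cytochromes P450 of families CYP1, CYP3 and CYP4, chosen by symbol alone from the gene table of a mouse RNA-seq series on reprogrammed hepatic stem cells. They were 32 of the 28022 genes listed, 3 in CYP1, 9 in CYP3 (all of subfamily CYP3A) and 20 in CYP4, of which 8 were CYP4A genes, 9 were CYP4F genes, and *Cyp4b1*, *Cyp4v3* and *Cyp4x1* stood alone in their subfamilies.

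The series held 14 libraries, 2 for each of 7 conditions, all from C57BL/6J mice by their labels. Mouse embryonic fibroblasts (MEFs, called fibroblasts here) were the starting cells, and the induced hepatic stem cells (iHepSCs) were made from MEFs with lentiviral *Oct4* and *Hnf4a*, so all 4 culture conditions carried both factors. 2D-iH was the flat culture of iHepSCs, and iHLO (3D-iHA in the labels) their organoid grown in 3D. 2D-iHE and iHEA (3D-iHEA in the labels) were the flat culture and the organoid in which iHepSCs were mixed with induced endothelial cells (iECs), which were made from a human fibroblast line, HF1, with ETV2. A read from these human cells entered the table only if it matched a mouse gene. Adult liver and fetal liver were the tissue references. The methods describe the adult mice as 6 weeks old and male, but both adult libraries held *Xist* (14646 and 16368 counts) and 0 counts of all 4 Y-linked genes looked at, so the tissue is called adult liver without a sex. No label says that the 2 libraries of a condition came from separate cultures or animals. The p-values below therefore measure the spread between these libraries, which may be technical.

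Cytochromes P450 are heme enzymes of the endoplasmic reticulum that oxidise lipophilic substrates with electrons passed on by P450 oxidoreductase (POR). CYP1 enzymes oxidise planar aromatic compounds and are controlled by the aryl hydrocarbon receptor (AhR), CYP3A enzymes clear a broad range of drugs and steroids and answer to the receptors PXR (*Nr1i2*) and CAR (*Nr1i3*), and CYP4 enzymes mainly hydroxylate fatty acids and eicosanoids at the omega end, the CYP4A genes under PPARα (*Ppara*). In liver the levels of several of them serve as a measure of hepatocyte maturity, and in mice some differ strongly between the sexes.

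Libraries held between 20851489 and 35143325 counts. Levels are given as counts, as counts scaled to the library total (CPM), or as CPM per kilobase of exon where genes are compared with each other. A member was read as detected where a library held more than 3 counts of it. Changes are log2 fold changes from edgeR's quasi-likelihood test. A gene is said to have risen or fallen where its Benjamini-Hochberg adjusted p over all genes tested was below 0.05. The SE after ± was derived from the test, as the absolute change over the square root of its F statistic. It is approximate, above all where a group held few or no counts. Albumin took 23.6% and 22.5% of the counts of the adult libraries, and edgeR's scaling factors were 0.432 and 0.442 there against 1.09 to 1.21 in the other libraries, so a fitted change against adult liver differs from the ratio of its CPM. The hepatocyte marker list summed to 328.2 to 458 CPM over the culture libraries against 262100 to 273000 CPM in adult liver. Most of the culture sum was *Apoa1*, at 5697 to 12149 counts a library. Of the 11 genes summed, 2 in 2D-iH, 8 in 2D-iHE, 2 in iHLO and 4 in iHEA held at most 3 counts. *Alb* itself was at 2 to 210 counts in the cultures. The highest of these, 210 counts, was the first 2D-iH library, whose second library held 9. In bulk RNA, fewer cells of a type and less RNA per cell cannot be told apart.

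The 3 families were weakly represented in the cultures and strongly in adult liver. All 32 members together summed to 4911 ± 27.8 CPM (SD, n = 2) in adult liver, 552.2 CPM in fibroblasts, 125.8 in iHLO, 130.5 in iHEA, 84.9 in 2D-iH, 89.5 in 2D-iHE and 48.1 in fetal liver. Most of the fibroblast sum was *Cyp1b1*. Adult liver detected 26 members, fetal liver 16, 2D-iH and iHLO 13 each, iHEA 12, 2D-iHE 9 and fibroblasts 7. The lists of detected genes turned on few reads in the first 2D-iH library, which held 7 counts of *Cyp3a11* and 4 of *Cyp3a44*.

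**Figure D1:**
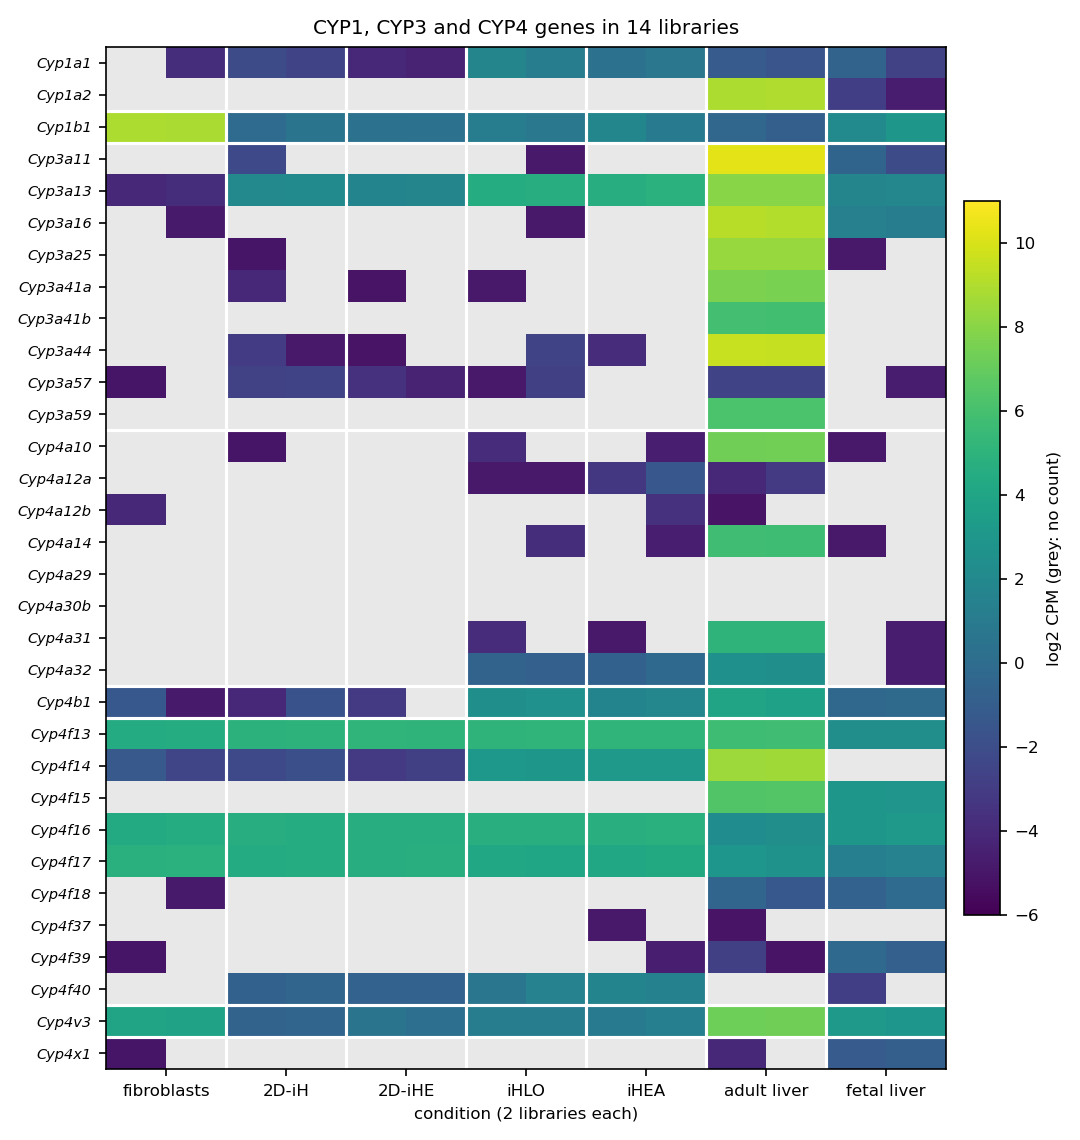
Level of each of the 32 members (rows, by subfamily) in each of the 14 libraries (columns, 2 for each condition) as log2 CPM on the colour scale, with grey for no count. Adult liver detected 26 members, and 10 members with at least 100 counts in both adult libraries were detected in no culture library.

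In 7 members every culture library held at least 10 counts: *Cyp1b1*, *Cyp3a13*, *Cyp4f13*, *Cyp4f16*, *Cyp4f17*, *Cyp4f40* and *Cyp4v3*. Another 8 were detected in at least 1 culture library. A set of 12 was detected in adult liver and in no culture library, and 10 of those held at least 100 counts in both adult libraries: *Cyp1a2*, *Cyp3a16*, *Cyp3a25*, *Cyp3a41a*, *Cyp3a41b*, *Cyp3a59*, *Cyp4a10*, *Cyp4a14*, *Cyp4a31* and *Cyp4f15*. *Cyp4f40* was the sole member detected in the cultures and not in adult liver. *Cyp4a12b*, *Cyp4a29*, *Cyp4a30b* and *Cyp4f37* were detected in none of the 14 libraries, with at most 3 counts in any of them.

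The organoids were first compared with the flat cultures, 4 libraries against 4, over the 13409 genes that passed the filter on low counts. In this fit 10 members were tested, and 8 rose and 1 fell in 3D, while 38.7% of all genes tested rose and 37.2% fell. Their median change was 1.58, against 0.01 over all genes. *Cyp1a1*, *Cyp4b1* and *Cyp4f14* averaged below the filter in the flat cultures and passed through the organoids, so their rise was fixed by the filter. For them the levels below are a description, and their p-values are no support. Neither this count or median nor the next 2 counts, which include the same genes, support a statement on the families. The same limit holds for genes of the lists below that passed the filter through the organoids or the flat cultures alone, and for the list counts that include them. The other 22 members were too low for this fit, so that the 10 are not the families as a whole. Within the cultures without iECs (iHLO against 2D-iH), 6 rose and 1 fell, beside 36.9% and 35.3% of all genes. Within those with iECs (iHEA against 2D-iHE), 7 rose and 1 fell, beside 36% and 34.9%.

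**Figure D2:**
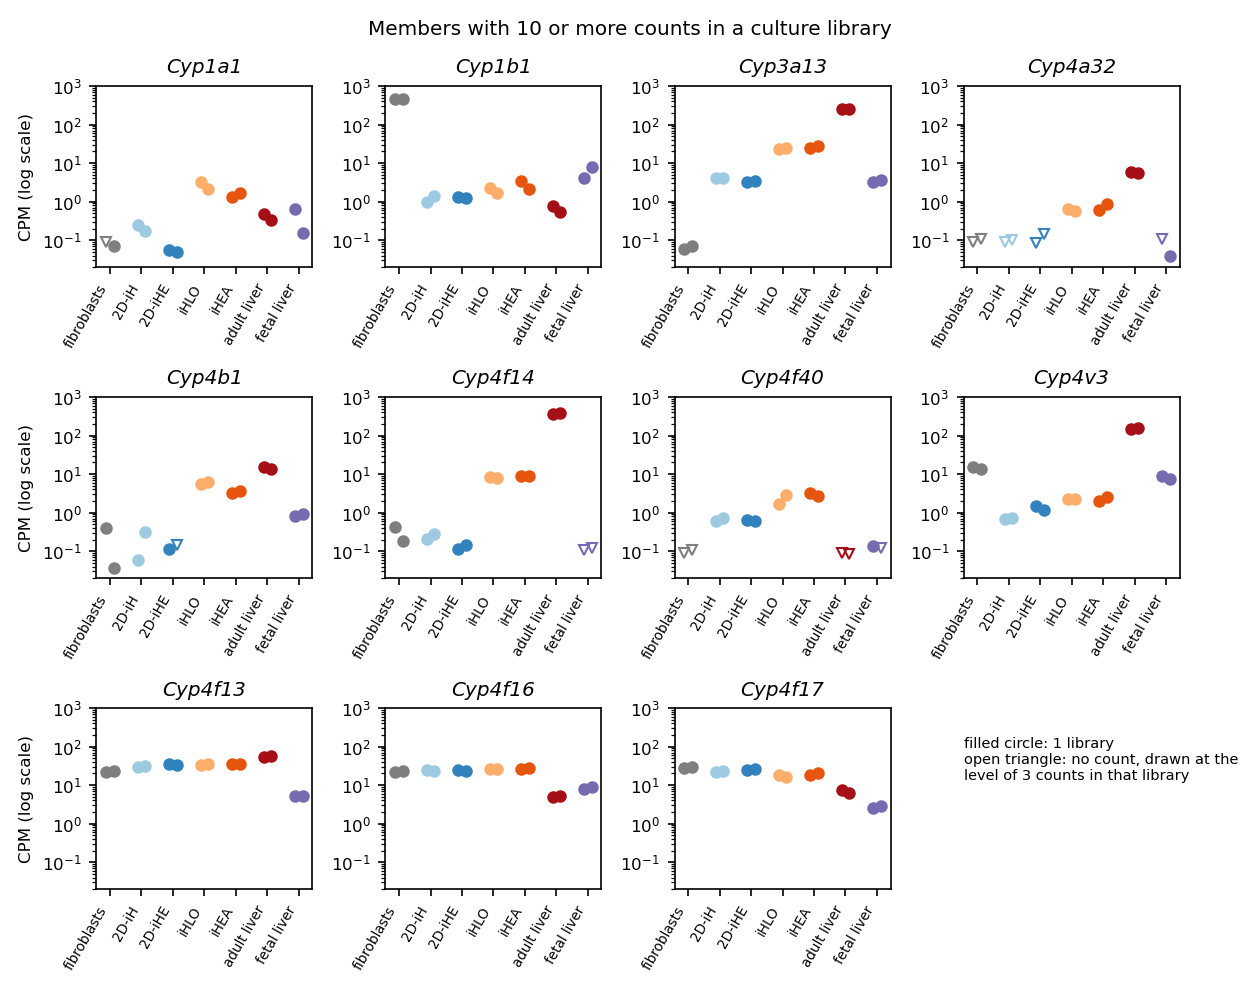
CPM (log axis) of the 11 members with at least 10 counts in a culture library, with a filled circle for each of the 2 libraries of the 7 conditions and an open triangle, at the level of 3 counts, for a library with no count. For *Cyp4f14*, *Cyp4b1*, *Cyp3a13*, *Cyp4a32* and *Cyp1a1* the 4 organoid libraries lie above the 4 flat culture libraries with a wide gap, and for *Cyp4f13*, *Cyp4f16* and *Cyp4f17* the cultures lie in a narrow band.

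CYP1 family. *Cyp1a1* and *Cyp1a2* lie beside each other on chromosome 9, within 26.9 kb (chr9:57676937-57703824), and *Cyp1b1* is on chromosome 17 (GRCm38, the build named mm10 in the submitters' processing notes). To show how the AhR core letters GCGTG fall in these genes, 150 bases before the start site are printed from RefSeq (GRCm38.p6), 5′ to 3′ on the gene's own strand, with the core, on either strand, in capitals. They are chr9:57697463-57697612 on the plus strand for *Cyp1a1*, chr9:57683704-57683853 on the minus strand for *Cyp1a2*, and chr17:79715062-79715211 on the minus strand for *Cyp1b1*. The *Cyp1a2* stretch begins 48 bases further out, before the earlier of its annotated starts.
Cyp1a1: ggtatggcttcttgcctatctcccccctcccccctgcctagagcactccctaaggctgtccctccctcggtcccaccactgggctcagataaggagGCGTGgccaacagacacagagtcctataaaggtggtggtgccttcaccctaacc
Cyp1a2: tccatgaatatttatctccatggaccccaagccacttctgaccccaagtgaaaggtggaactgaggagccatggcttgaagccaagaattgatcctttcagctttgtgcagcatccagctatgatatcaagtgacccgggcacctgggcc
Cyp1b1: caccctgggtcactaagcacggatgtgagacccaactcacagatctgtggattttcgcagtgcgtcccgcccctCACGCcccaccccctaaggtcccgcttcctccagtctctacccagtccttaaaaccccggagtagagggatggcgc

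The core stood at position -54 of *Cyp1a1*, upstream of a TATAAA at -30, and at -76 of *Cyp1b1*, and was not in the *Cyp1a2* window. It is a common word: 32.4% of 32851 promoter windows of 300 bases held it on either strand, and so did 6 of the 25 members with a window (also *Cyp4f14*, *Cyp4f16*, *Cyp4f39* and *Cyp4v3*). A match is a description of the letters and not of binding.

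*Cyp1a1*, the classical AhR target that oxidises polycyclic aromatic hydrocarbons, rose in 3D. The flat cultures held 8 and 5 counts (2D-iH) and 2 and 1 counts (2D-iHE). The organoids held 96 and 61 counts (iHLO) and 38 and 39 counts (iHEA). All 4 organoid libraries were above all 4 flat libraries, at 2.12 ± 0.88 CPM (SD, n = 4) against 0.13 ± 0.0938. The change was 3.92 ± 0.45 (adjusted p = 9.97e-06), 3.67 ± 0.36 without iECs and 4.66 ± 0.53 with them. Fibroblasts held 0 and 2 counts, adult liver 16 and 12, and fetal liver 19 and 4. Both iHLO libraries lay above both iHEA libraries, but this difference did not pass the test (-0.92 ± 0.27, adjusted p = 0.125).

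*Cyp1a2*, the constitutive hepatic CYP1 enzyme that metabolises caffeine and arylamines, was at 0 counts in all 8 culture libraries and in both fibroblast libraries. Adult liver held 16614 and 17536 counts (484 and 500.7 CPM), and fetal liver 4 and 1. Against a floor of 3 counts per library, adult liver was at least 4553-fold higher than the cultures. Per length, *Cyp1a2* made up 99.9% of the CYP1 level in adult liver. In the cultures *Cyp1b1* stood above *Cyp1a1* in 2D-iH (0.206 against 0.0742 CPM per kb) and 2D-iHE (0.221 against 0.0188), and below it in iHLO (0.337 against 0.988). In iHEA the libraries differed in the order (0.586 against 0.476 in the first and 0.361 against 0.589 in the second).

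*Cyp1b1*, an extrahepatic enzyme that hydroxylates estradiol and aromatic hydrocarbons, was the leading member in fibroblasts. It stood at 15593 and 12587 counts there (472 and 455.5 CPM) and at 32 and 42 counts in 2D-iH, a fall of 8.55 ± 0.20 on the log2 scale (adjusted p = 7.34e-17). The 2D-iHE libraries held 47 and 26 counts. The organoids held 64 and 48 counts (iHLO) and 98 and 50 (iHEA), all above the flat cultures, and the rise in 3D was 0.90 ± 0.23 (adjusted p = 0.00404). It passed the test with iECs (1.08 ± 0.30, adjusted p = 0.0055, and 0.069 without the first iHEA library) and not without them (0.69 ± 0.30, adjusted p = 0.0562), although it was called with no filter on low counts (0.0158), with a replicate block on 7 libraries (0.0117), and without the second 2D-iH library (0.0427) or either iHEA library (0.0193 and 0.0185). The marker list of fibroblasts summed to 5.36 to 15.5 CPM over the cultures against 29330 to 31040 CPM in fibroblasts. Adult liver held 26 and 19 counts, below fetal liver with 119 and 199 (-1.73 ± 0.34, adjusted p = 0.00018).

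The AhR pathway list, which holds no member, moved mostly the other way in 3D: of 10 genes tested of 11, 2 rose and 7 fell, with a median change of -0.35. *Ahr*, the receptor itself, rose by 1.29 ± 0.12 (adjusted p = 1.1e-06). It stood at 335, 276, 464 and 290 counts in the flat cultures and at 902, 747, 755 and 744 in the organoids. *Nqo1*, a quinone reductase shared by the AhR and Nrf2 responses, fell by 4.93 ± 0.20 (adjusted p = 1.24e-09), from 521 to 925 counts to 11 to 40. *Aldh3a1*, an aldehyde dehydrogenase of the same battery, fell by 3.81 ± 0.09 (adjusted p = 2.27e-11). *Cyp1b1* rose in the same libraries in which the most strongly changed other AhR battery genes fell. *Cyp1a1* stood higher there too, but its rise was fixed by the filter.

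**Figure D3:**
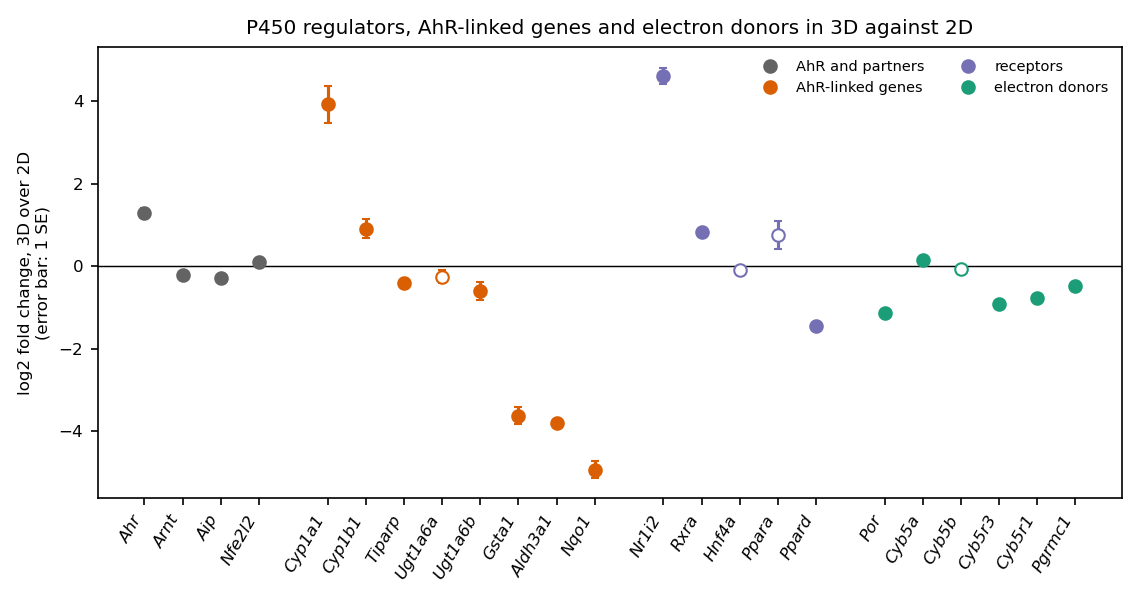
Log2 fold change of the organoids over the flat cultures, with 1 SE, for the tested AhR list and its 2 CYP1 targets, 5 of the 10 receptors tested and all 6 electron donors. Points are filled where the adjusted p was below 0.05. *Cyp1a1* lies at 3.92 and *Nr1i2* at 4.61, while *Nqo1* lies at -4.93 and *Por* at -1.13.

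CYP3 family. All 9 genes lie on chromosome 5, 8 of them in a cluster of 768 kb (chr5:145345279-146113287). *Cyp3a13* lies apart, 7.42 Mb away (chr5:137892932-137921619). To show how near the copies are to each other and how *Cyp3a13* differs, 150 bases before the RefSeq start are printed, with the letters CAAAGTCCA, the core of an HNF4 response element, in capitals. They are chr5:145469724-145469873 (*Cyp3a16*), chr5:145720137-145720286 (*Cyp3a41a*), chr5:145805875-145806024 (*Cyp3a44*) and chr5:137921620-137921769 (*Cyp3a13*), all on the minus strand of GRCm38.p6.
Cyp3a16: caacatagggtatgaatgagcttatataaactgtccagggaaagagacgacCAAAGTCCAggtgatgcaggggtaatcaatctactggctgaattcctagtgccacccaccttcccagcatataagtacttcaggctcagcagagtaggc
Cyp3a41a: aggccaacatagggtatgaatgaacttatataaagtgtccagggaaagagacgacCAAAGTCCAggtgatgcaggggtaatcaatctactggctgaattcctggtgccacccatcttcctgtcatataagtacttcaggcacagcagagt
Cyp3a44: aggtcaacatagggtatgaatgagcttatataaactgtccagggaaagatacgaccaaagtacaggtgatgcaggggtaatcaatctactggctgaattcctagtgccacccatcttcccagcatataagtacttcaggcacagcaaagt
Cyp3a13: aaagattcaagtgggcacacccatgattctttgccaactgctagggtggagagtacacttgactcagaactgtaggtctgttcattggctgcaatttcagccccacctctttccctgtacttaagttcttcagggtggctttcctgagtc

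Those letters stood at -99 of *Cyp3a16*, -95 of *Cyp3a41a* and *Cyp3a41b* and -109 of *Cyp3a11*, 4 of the 25 members with a window, and in 0.475% of all windows. *Cyp3a44* differed from *Cyp3a41a* in this core by C7A, counted from 1 at its 5′ end, and the *Cyp3a13* window did not hold it. TATAAA was in 8 of the 25 windows and in 13.6% of all. The windows of *Cyp3a41a* and *Cyp3a41b* were 97.3% identical and those of *Cyp3a41a* and *Cyp3a44* 92.3%. In the transcripts of *Cyp3a41a*, 82.9% of 150-base stretches also occurred in another gene, mostly *Cyp3a41b*, so the split of reads between these 2 genes is uncertain.

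*Cyp3a13*, a CYP3A enzyme of both liver and intestine, was the CYP3A gene of the cultures. The flat cultures stood at 4.03 and 4.11 CPM (2D-iH) and 3.19 and 3.36 CPM (2D-iHE). The organoids stood at 23.6 and 24.6 CPM (iHLO) and 24.2 and 28.6 CPM (iHEA). The groups were far apart, and the 3D level was 6.81 times the flat level. The change was 2.75 ± 0.10 (adjusted p = 6.85e-10), 2.54 ± 0.11 without iECs and 2.99 ± 0.11 with them. *Cyp3a13* also differed between the flat culture and its starting cells: fibroblasts held 2 and 2 counts and 2D-iH 133 and 120 (5.89 ± 0.28, adjusted p = 2.21e-12). Adult liver stood at 254.1 and 254 CPM, 10.1 times the organoids (95% counting interval 9.73 to 10.6, for counting error only), and fetal liver at 3.28 and 3.67 CPM.

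Per length, *Cyp3a13* made up 89.4% of the CYP3A level in 2D-iH, 98.6% in iHLO and 99.8% in iHEA, but 6.36% in adult liver, where it ranked sixth of the 9. Adult liver was led by *Cyp3a44* at 379.8 CPM per kb, *Cyp3a16* at 320.2, *Cyp3a11* at 248.6, *Cyp3a25* at 158 and *Cyp3a41a* at 93.9. *Cyp3a59* followed at 36 and *Cyp3a41b* at 28.7, and *Cyp3a57* was near 0 at 0.0868.

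**Figure D4:**
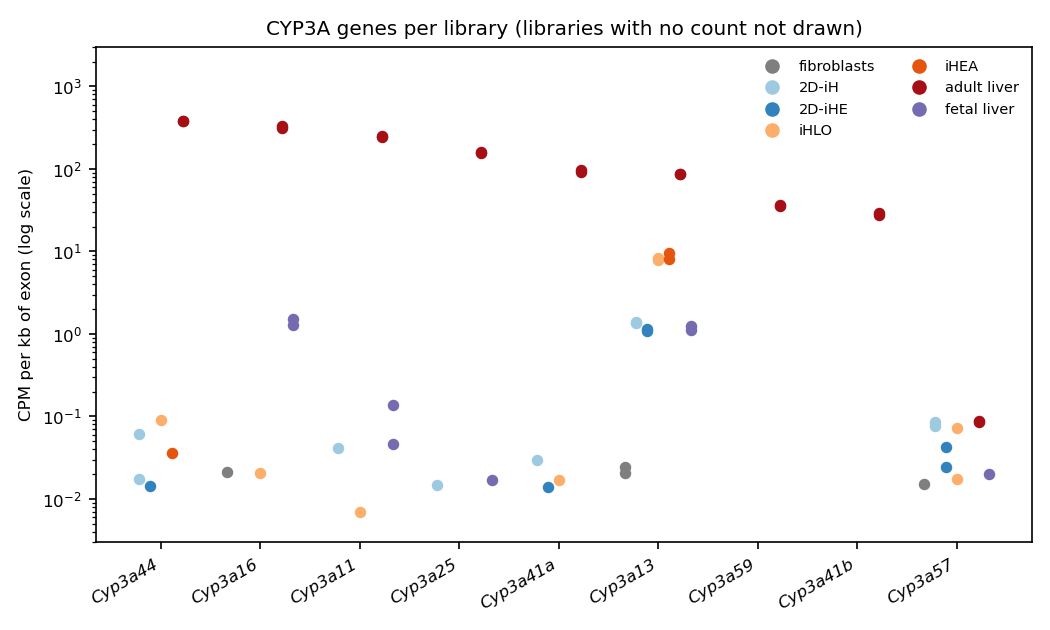
Level of the 9 CYP3A genes (CPM per kb of exon, log axis, ordered by adult liver) with a point for each library of each condition that held a count. *Cyp3a13* is the leading CYP3A gene of the cultures, and in adult liver *Cyp3a44*, *Cyp3a16*, *Cyp3a11*, *Cyp3a25* and *Cyp3a41a* lie above it.

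*Cyp3a11*, the main PXR-inducible drug-metabolising CYP3A enzyme of mouse liver and the closest in use to human CYP3A4, was at 43920 and 43902 counts in adult liver and at 20 and 6 in fetal liver. The cultures held 0 counts in 6 of 8 libraries, 1 in the second iHLO library and 7 in the first 2D-iH library. Without those 7 counts the cultures would be at the floor. That first 2D-iH library also held more of other liver transcripts than its partner (*Alb* 210 against 9, *Fgb* 22 against 0, *Cps1* 17 against 3), and their part in the *Cyp3a11* counts was not tested.

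*Cyp3a16*, a CYP3A gene known from fetal and young liver, held 19572 and 18836 counts in adult liver and 76 and 56 in fetal liver, where it was the leading CYP3A gene with 52.2% of the CYP3A level per length, beside *Cyp3a13* with 43.7%. *Cyp3a44*, a female-predominant gene, held 25790 and 25873 counts in adult liver and 0 in both fetal libraries, at least 6685-fold higher in adult liver. The cultures held 0 to 5 counts of it. *Cyp3a59* was at 0 in every library outside adult liver (2453 and 2539 counts), at least 665.6-fold above the cultures, and *Cyp3a41b* was at least 547.1-fold above them. *Cyp3a25* held 11378 and 11448 counts in adult liver and *Cyp3a41a* 6769 and 6636. *Cyp3a57* held 0 to 6 counts in all 14 libraries.

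The sexes differ in several of these genes. In adult liver the female-predominant *Cyp3a41a* (197.2 and 189.5 CPM) and *Cyp3a44* (751.4 and 738.8 CPM) were high, while the male-predominant *Cyp4a12a* and *Cyp4a12b* held 2 and 4, and 1 and 0 counts. The list of female-biased mouse liver genes was higher in adult than in fetal liver in 10 of 10 and that of male-biased genes in 9 of 9 (8 with library totals). In the organoids 3 genes of each list were tested and all 6 rose, with medians of 3.00 (female-biased, led by *Cyp2a4* at 7.66 ± 0.39) and 0.95 (male-biased, led by *Cyp7b1* at 2.51 ± 0.48). Both leading genes passed the filter through the organoids alone, so the counts are no support. Of 5 X and Y genes looked at, *Xist* was the one tested in the cultures and fell by 1.55 ± 0.20, from 85 to 165 counts in 2D to 34 to 49 in 3D, and in adult against fetal liver 1 rose and 4 fell (0 and 5 with library totals). The fetal libraries differed from each other in Y-linked RNA (*Ddx3y* 885 and 151 counts).

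Among the receptors that act on CYP3A and CYP4A genes, 3 of 10 tested rose in 3D and 3 fell, with a median of 0.33. *Nr1i2* (PXR), which passed the filter through the organoids alone, differed by 4.61 ± 0.21 (adjusted p = 2.95e-09). It stood at 4 to 6 counts in the flat cultures and at 104 to 133 in the organoids, and adult liver held 2877 and 3079. *Nr1i3* (CAR) held 0 to 2 counts in the 8 cultures and 984 and 1124 in adult liver, so that it was not tested between cultures. *Hnf4a*, which the stem cells carry as a transgene, was at 4117 to 7670 counts in the cultures with a change in 3D of -0.11 ± 0.08 (adjusted p = 0.217).

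CYP4 family. The CYP4A, CYP4B and CYP4X genes form a cluster of 10 on chromosome 4 (chr4:115106323-115647723, 541.4 kb), and 8 CYP4F genes one of 494.7 kb on chromosome 17 (chr17:32452723-32947402). *Cyp4f18* and *Cyp4v3* are on chromosome 8. The subfamilies behaved differently: the summed CYP4F level was 78.1 CPM in 2D-iH, 83.4 in 2D-iHE, 87.8 in iHLO and 93 in iHEA, against 522.2 ± 17.2 CPM (SD, n = 2) in adult liver, and the summed CYP4A level was at most 1.43 CPM in any culture library against 253.8 in both adult libraries.

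*Cyp4f14*, a leukotriene B4 omega-hydroxylase of liver, held under 10 counts in each flat culture library and at least 212 in each organoid library. The flat cultures held 7, 8, 4 and 3 counts. The organoids held 243 and 228 counts (iHLO) and 254 and 212 (iHEA). No organoid library came near a flat one, and the change was 5.47 ± 0.19 (adjusted p = 3.82e-10), 5.05 ± 0.22 without iECs and 6.08 ± 0.25 with them. Fibroblasts held 14 and 5 counts. Adult liver stood at 12388 and 13260 counts, 43.1 times the organoids in CPM, and fetal liver at 0 in both libraries. *Cyp4f14* led the CYP4 family in adult liver at 152.8 CPM per kb.

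*Cyp4b1*, which hydroxylates medium-chain fatty acids and is high in lung, rose by 5.15 ± 0.45 in 3D (adjusted p = 9.88e-07). The flat cultures held 2, 9, 4 and 0 counts, iHLO 162 and 173, and iHEA 93 and 88. The organoids were above every flat library, and iHLO above iHEA, although the latter difference did not pass the test (-0.79 ± 0.27, adjusted p = 0.199). Adult liver held 525 and 469 counts, 3.03 times the organoids in CPM (counting interval 2.73 to 3.38). Of the 6 airway, gastric and intestinal markers tested of 10, 6 rose in 3D (median 4.22). That list summed to 41.8 to 61.7 CPM in the flat cultures, 398.1 to 444.3 in the organoids and 4.25 to 4.48 in adult liver. *Sftpd*, *Scgb1a1* and *Foxj1* passed the filter through the organoids alone, so this count and median are in part set by it. *Sftpd*, a lung surfactant protein, went from 0 counts in the 4 flat libraries to 558 to 1026, but *Nkx2-1*, the defining lung factor, was at 0 in all 8. The part of such cells in the *Cyp4b1* and *Cyp3a13* levels was not tested.

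*Cyp4a32*, a CYP4A fatty acid omega-hydroxylase, was counted in the organoids and in no flat culture. It was at 0 counts in the fibroblasts and the 4 flat cultures, and at 19 and 16 in iHLO and 17 and 21 in iHEA, at least 6.40-fold higher. Being under the filter, it entered a fit to which the low members were added, where its adjusted p was 1.1e-05. With no flat culture count it could come out in 1 direction alone, and so could *Cyp4a12a*, so these p-values are no support. Adult liver held 203 and 191 counts, 8.5 times the organoids in CPM. A share of 6.96% of its 150-base stretches occurred also in *Cyp4a31* or *Cyp4a10*, which held at most 3 counts in the cultures. *Cyp4a12a* held 0 counts in the flat cultures, 1 and 1 in iHLO and 3 and 9 in iHEA, where the fit with the low members added called it with iECs (adjusted p = 0.00618) and in all cultures together (0.0201) but not without iECs (0.182). It shared 25.6% of its stretches with other genes, mostly *Cyp4a12b*. Of the other CYP4A genes 3 were detected, all in adult liver alone: *Cyp4a10*, the best known PPARα target among them, held 5501 and 5718 counts there, *Cyp4a14* 1885 and 1814, and *Cyp4a31* 1121 and 1163.

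*Cyp4f40* held 0 counts in both adult liver and both fibroblast libraries. The flat cultures held 20, 21, 22 and 13 counts and the organoids 47, 81, 93 and 65. Its rise in 3D was 2.00 ± 0.23 (adjusted p = 1.04e-05), and adult liver was at least 30.4-fold lower than the organoids. Fetal liver held 4 and 0 counts. No function is given for this gene here.

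*Cyp4v3*, the mouse counterpart of a fatty acid hydroxylase linked to a retinal dystrophy, was at 507 and 377 counts in fibroblasts and 22 and 21 in 2D-iH (-4.34 ± 0.16, adjusted p = 4.85e-14). The 2D-iHE libraries held 51 and 24 counts, and the organoids 67 and 65 (iHLO) and 56 and 60 (iHEA). In CPM all organoid libraries were above all flat ones, and the rise was 1.17 ± 0.24 (adjusted p = 0.000912). Without iECs it was 1.72 ± 0.26 (adjusted p = 6.27e-05). With iECs it was 0.73 ± 0.25 (adjusted p = 0.0176), a call that was lost by DESeq2 (0.0849), with a replicate block on 7 libraries (0.157), and without the second 2D-iHE library (0.101) or the second iHEA library (0.108). Adult liver held 5148 and 5519 counts, 67.8 times the organoids in CPM. *Cyp4v3* overlaps *Gm45753* on the same strand and shares 4.48% of its stretches.

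*Cyp4f13*, *Cyp4f16* and *Cyp4f17* made up most CYP4F reads of the cultures and changed little. *Cyp4f13* stood at 29.9 to 35 CPM in the flat cultures and 33.1 to 35.7 in the organoids (0.08 ± 0.05, adjusted p = 0.184). *Cyp4f16* stood at 23.3 to 24.3 and 25.9 to 27.2 CPM, a change of 0.12 ± 0.04 whose adjusted p was 0.0247 and 0.0798 by DESeq2. *Cyp4f17* fell from 21.9 to 25.6 CPM to 16.2 to 20.1 (-0.40 ± 0.07, adjusted p = 0.00023). It was the sole tested member that fell in 3D. In fibroblasts *Cyp4f13* stood at 21.9 and 23.2 CPM, *Cyp4f16* at 21.4 and 22.6, and *Cyp4f17* at 28.3 and 29.1.

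Another 4 CYP4 genes were detected in liver alone. *Cyp4f15* was at 0 in the fibroblasts and cultures, 2875 and 3090 counts in adult liver, and 226 and 184 in fetal liver, at least 795.2-fold above the cultures in adult liver and 4.96 ± 0.09 higher there than in fetal liver (adjusted p = 3.66e-14). *Cyp4f18*, which overlaps *Zfp961*, held 25 and 14 counts in adult and 18 and 24 in fetal liver. *Cyp4f39*, a hydroxylase of very long-chain fatty acids in skin, held 25 and 15 in fetal liver, and *Cyp4x1*, which overlaps the antisense gene *Cyp4x1os*, 13 and 14. Their fitted differences from adult liver were -1.62 ± 0.69 (adjusted p = 0.0449, 0.408 by DESeq2) and -2.59 ± 0.92 (adjusted p = 0.0198, 0.377 by DESeq2), and each was lost without the second adult library (0.371 and 0.176).

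**Figure D5:**
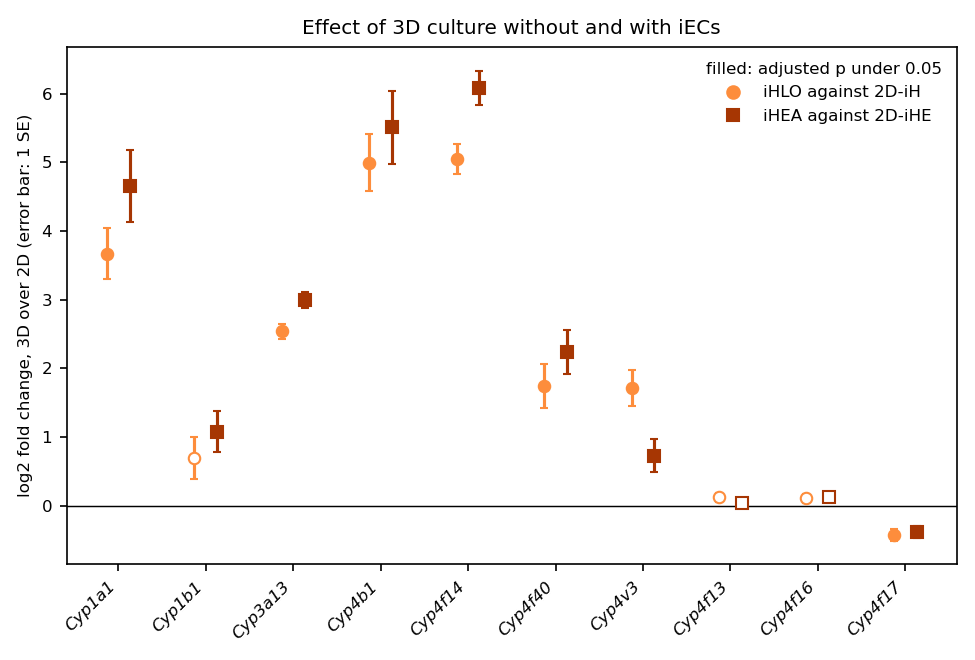
Log2 fold change with 1 SE of the 10 tested members in the organoids over the flat cultures, without iECs (circles, iHLO against 2D-iH) and with iECs (squares, iHEA against 2D-iHE), filled where the adjusted p was below 0.05. *Cyp4f14*, *Cyp4b1*, *Cyp1a1* and *Cyp3a13* lie between 2.54 and 6.08 in both comparisons, and *Cyp4f17* lies below 0 in both.

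Adding iECs was compared at each culture form. No member of the 10 passed the test between iHEA and iHLO, where 1.19% of all genes rose and 1.07% fell. The members with an unadjusted p below 0.05 were *Cyp1a1* and *Cyp4b1*, with the values given above. DESeq2 called 0 members too, but both were called with no filter on low counts (adjusted p = 0.0312 and 0.00283) and *Cyp1a1* with a replicate block on 7 libraries (0.00473). The other members differed by 0.48 or less on the log2 scale, *Cyp1b1* (0.48, adjusted p = 0.557) and *Cyp4f40* (0.39, adjusted p = 0.644) the most. Between 2D-iHE and 2D-iH, 4.26% of all genes rose and 3.92% fell. No member passed in the main edgeR fit or by DESeq2, and other fits of *Cyp4v3* are given below. In the main fit 3 members had an unadjusted p below 0.05. The values were -1.90 ± 0.75 for *Cyp1a1* (adjusted p = 0.152), 0.90 ± 0.28 for *Cyp4v3* (adjusted p = 0.073) and -0.35 ± 0.14 for *Cyp3a13* (adjusted p = 0.17). A missed threshold does not show that these levels were the same.

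The change of the iEC effect from 2D to 3D was tested as an interaction. Of all genes, 1.52% passed it upward and 1.62% downward. No member passed it in the main edgeR fit or by DESeq2, with 2 at an unadjusted p below 0.05 in the main fit. These were *Cyp3a13* (0.46 ± 0.17, adjusted p = 0.199) and *Cyp4v3* (-0.98 ± 0.36, adjusted p = 0.203). The value was 1.03 ± 0.50 for *Cyp4f14* and 0.98 ± 0.80 for *Cyp1a1*, with wider errors. The differences between the comparisons with and without iECs given above for *Cyp1b1* and *Cyp4v3* are thus not shown to differ.

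Adult liver was then set against fetal liver, in a fit over all 14 libraries in which 16987 genes and 26 members passed the filter. A member that passed through adult liver alone had to differ here. Higher in adult liver were 21 members and lower 3, beside 37.2% and 43.2% of all genes. *Cyp3a13* was higher in adult liver by 7.65 ± 0.09, *Cyp3a16* by 9.28 ± 0.12, *Cyp4v3* by 5.66 ± 0.09, *Cyp4b1* by 5.49 ± 0.30 and *Cyp4f17* by 2.81 ± 0.13. *Cyp1b1*, *Cyp4f39* and *Cyp4x1* were the members that were lower. The scaling decided 2 directions: *Cyp4f16* was 0.73 ± 0.10 higher in adult liver by the main fit and 0.72 lower with library totals alone, and *Cyp1a1* was 1.38 ± 0.56 higher (adjusted p = 0.0321) but at -0.06 with library totals, and its call was also lost with upper-quartile scaling (0.0675), in a fit of the 4 liver libraries alone (0.0643), and without the first adult library (0.164) or the second fetal library (0.213). With those totals the median gene moved to -1.62, 2723 genes were higher and 12324 lower, against 6320 and 7345 in the main fit.

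The markers of red cell precursors, 7 genes that all were higher in fetal liver, summed to 41930 to 42780 CPM there against 263.4 to 278 in adult liver. Hepatocyte markers summed to 14170 to 17440 CPM in fetal liver, and all 11 in the table were higher in adult liver. What the cell mix adds to the difference of each member was not tested. By list, the AhR genes rose in adult liver in 8 of 11, the receptors in 11 of 12, the PPARα targets in 13 of 15 and the electron donors in 5 of 6, whereas 6 of 8 heme synthesis genes fell. With library totals the AhR list was divided, with 4 higher and 5 lower (median 0.17, against 1.56 by the main scaling). The receptors were then higher in 10, the PPARα targets in 12 and the electron donors in 5, and 7 heme synthesis genes were lower.

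Between iHLO and adult liver 3 of 26 members were higher in iHLO and 20 lower, beside 41.6% and 38.2% of all genes. Between iHEA and adult liver 2 were higher and 20 lower, beside 41.4% and 38%. These comparisons share the adult libraries. As in the comparison of the livers, a member that passed the filter through adult liver alone had to be lower, *Cyp3a59*, *Cyp3a41b*, *Cyp3a25*, *Cyp4a14* and *Cyp4a31* among them, so the counts of lower members describe the choice of genes as well. With library totals 11087 genes were higher and 3560 lower in iHLO, and 11168 and 3487 in iHEA. Higher in both organoids were *Cyp4f16* (0.97 ± 0.09 in iHLO) and *Cyp4f40* (0 in adult liver), and *Cyp1a1* was higher in iHLO (1.37 ± 0.44, adjusted p = 0.00889) and not called in iHEA (0.44, adjusted p = 0.403), where it was 1.86 ± 0.46 higher with library totals (adjusted p = 0.0013). The call of *Cyp1a1* was lost by DESeq2 (0.0895) and without the first iHLO library (0.0821) or the second adult library (0.121). *Cyp4f17* was at -0.09 in iHLO (adjusted p = 0.426), at -0.31 by DESeq2 (adjusted p = 0.0317), and 1.31 higher with library totals. *Cyp1b1* was not called in iHLO (0.20) but 1.60 higher with library totals. In iHEA it stood at 0.69 ± 0.40 (adjusted p = 0.12) and was called with library totals (2.11, 8.93e-05), with no filter (0.00387), with the replicate block (0.0407) and without the second iHEA library (0.0278). Among the lower members, *Cyp4b1* stood at -2.68 ± 0.23 in iHLO and -3.48 ± 0.25 in iHEA, *Cyp3a13* at -4.80 ± 0.07 and -4.70 ± 0.07, *Cyp4a32* at -4.60 ± 0.30 and -4.38 ± 0.30, and *Cyp4f14* at -6.88 ± 0.08 and -6.80 ± 0.08.

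Conversion of fibroblasts to the flat stem cell culture was the last comparison. In 2D-iH 4 of the 26 members tested were higher than in fibroblasts and 3 lower, beside 41.3% and 35.7% of all genes. Members such as *Cyp1a2*, *Cyp3a41b* and *Cyp3a59* passed the filter through liver and held 0 counts in both groups. They could not be called, so the count and the shares are not alike. In a fit of the 4 libraries alone 7 members were tested, of which 3 were higher and 3 lower. With no filter 6 were higher, *Cyp3a11* (adjusted p = 0.00336) and *Cyp3a44* (0.0147) included, on 7 and 0, and 4 and 1 counts. DESeq2 called *Cyp3a44* (0.0309) as well. Higher in the main fit were *Cyp3a13*, *Cyp4f13* (0.49 ± 0.07), *Cyp4f40* (at least 6.65-fold, since fibroblasts held 0) and *Cyp1a1* (2.54 ± 1.06, adjusted p = 0.0377). The call of *Cyp1a1* rested on 13 against 2 counts and was lost with DESeq2's size factors (0.0527), upper-quartile scaling (0.0559) and the DESeq2 test (0.0526), and without the first fibroblast library (0.243) or either 2D-iH library (0.145 and 0.0506). Lower were *Cyp1b1*, *Cyp4v3* and *Cyp4f17* (-0.30 ± 0.09, adjusted p = 0.00499, and 0.0533 without the first 2D-iH library). All 9 fibroblast markers fell in this comparison.

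The enzymes that P450s depend on were divided in 3D. Of 6 electron donor genes 1 rose and 4 fell, with a median of -0.63. *Por*, which feeds electrons to all microsomal P450s, fell by 1.13 ± 0.06 (adjusted p = 2.4e-08), from 10356, 9797, 13779 and 7935 counts to 4884, 4462, 4883 and 3784. Adult liver held 24204 and 25671. *Cyb5r3*, the reductase of cytochrome b5, fell by 0.92 ± 0.07. Of 8 heme synthesis genes 4 rose and 4 fell. *Alas1*, the rate-limiting enzyme of that pathway in liver, rose by 1.00 ± 0.06 (adjusted p = 1.85e-08), and *Cpox*, a later enzyme, fell by 0.98 ± 0.06.

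The PPARα target list was divided as well, with 6 of 12 tested higher and 4 lower in 3D and a median of 0.09. *Creb3l3*, a hepatic transcription factor, rose by 3.31 ± 0.32. *Ppara* itself stood at 5 to 12 counts in the flat cultures and 6 to 19 in the organoids (0.75 ± 0.33, adjusted p = 0.0585), against 2330 and 2611 in adult liver. Of 7 epoxide hydrolase and arachidonate genes tested, enzymes that share fatty acid substrates with CYP4, 2 rose and 4 fell in 3D. *Ptgs1*, the constitutive cyclooxygenase, rose by 2.16 ± 0.16 and *Pla2g4a*, the cytosolic phospholipase A2, which passed the filter through the flat cultures alone, differed by -2.33 ± 0.42. In adult against fetal liver 4 of 11 rose, with *Ephx1* and *Ephx2* highest at 5.80 ± 0.08 and 5.59 ± 0.08, and 5 fell, against 2 and 7 with library totals.

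Marker lists of other cells also moved in 3D. Hepatocyte markers rose in 3 of 5 tested, led by *Ttr* (5.37 ± 0.13), a plasma transport protein, and 0 fell over all 8 libraries, while 1 fell within each pair. In iHLO against 2D-iH it was *Alb* (-3.35 ± 1.02, adjusted p = 0.0102), with its 210 counts in the first 2D-iH library, and in iHEA against 2D-iHE it was *Apoa1* (-0.38 ± 0.08, adjusted p = 0.00067). Endothelial markers rose in 4 of 5, at 473.3 to 527.9 CPM in the flat cultures and 1037 to 1568 in the organoids, iHLO without iECs included. Bile duct markers rose in 3 of 7 and fell in 2, fibroblast markers rose in 2 of 5 and fell in 2, 1 of 2 macrophage markers fell, and no red cell marker was high enough to be tested. *Tat*, *Ahsg*, *Pecam1* and *Pdgfrb* among these passed the filter through the organoids alone. The part of each of these cell types in the members' levels was not tested.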

How the data were processed

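RNA-seq reads of 150 bases were processed by the authors, whose notes to the repository name Trimmomatic 0.36, HISAT2, Cufflinks, HTSeq and the mouse build mm10. They deposited 1 table of whole-number counts for 28022 genes in 14 libraries. Whether counting used strand, and what was done with reads matching more than 1 gene, is not given in the sources used here. The second column of the iHEA organoid has labels with 2 different numbers, so it served as an unnumbered iHEA library.

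Groups were taken from the labels. The deposited counts were tested with edgeR 4.0.16 (quasi-likelihood test, TMM scaling, R 4.3.3) and Benjamini-Hochberg adjustment over all genes tested, at 0.05. Culture comparisons used the 8 culture libraries and a filter on low genes, requiring log2(count + 1) to average 3 or more. Tissue comparisons used all 14 libraries and filterByExpr with a minimum count of 10. The scripts were tested on simulated data. Totals per library were 20851489 to 35143325, which limits what 0 counts can show to levels below 3 counts in a library. Ratios of counts carry exact 95% intervals, and these and the floors cover counting error only.

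Every member was accounted for, with full statistics for the 16 members with at least 10 counts in a culture library or among the top 3 of their family per length in adult liver. From each gene list the 2 largest called changes were named, and *Ahr*, *Nr1i2*, *Nr1i3*, *Ppara* and *Por* in any case. Some of these results are not reported here. The other genes named were chosen after their values were seen. The members and lists were chosen with earlier results of these data known. Lengths and positions came from GENCODE M21, and promoters from RefSeq GRCm38.p6 for 25 of 32 members. DESeq2 1.42.0, other scalings, other filters, a replicate block and leaving out each library were alternatives. Library totals without scaling factors were added after the data were seen.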

Additional observations from a re-analysis of the deposited data

Results flagged for a closer look

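Of 27 groups of 4 libraries in which the members' CPM could be examined for a library far from the others, 1 was set apart: *Cyp3a11* in the flat cultures, where the first 2D-iH library stood at 0.212 CPM (7 counts) and the other 3 flat libraries at 0. How often this would happen by chance is not known, since a group with 3 libraries at 0 and 1 above 3 counts is always set apart. The same library held 210 counts of *Alb*, against 2 to 9 in the other flat cultures.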

How the results depend on the processing

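There were 1660 refitted values of the 16 members with full statistics. Of these, 1603 kept their side of the threshold, 28 passed it newly, 26 no longer passed it and 3 turned their direction. A turn was counted only where the main fit or the refit passed, so the 1603 can include changes of sign between values that did not pass. Further calls that changed were those of *Cyp4f18*, *Cyp4f39* and *Cyp4x1* in the comparisons with adult liver. The 3 that turned did so with library totals in place of TMM factors: *Cyp1a1* in adult against fetal liver (-0.0623, adjusted p = 0.928), *Cyp4f16* in the same comparison (-0.7212) and *Cyp4f17* in iHLO against adult liver (1.31). This follows from the scaling itself, which moved the median gene to -1.62, and to 1.46 and 1.48 in iHLO and iHEA against adult liver. Calls over all genes became 2723 higher and 12324 lower (adult against fetal), 11087 and 3560 (iHLO against adult) and 11168 and 3487 (iHEA against adult), and those of members 19 and 4, 5 and 20, and 5 and 19.

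Between iHEA and iHLO, 2 members were called with no filter on low counts (*Cyp1a1*, adjusted p = 0.0312, and *Cyp4b1*, 0.00283) and 1 with the replicate block (*Cyp1a1*, 0.00473), a fit on 7 libraries, since it also leaves out the unnumbered second iHEA library. Between 2D-iHE and 2D-iH, 1 was called with the replicate block (*Cyp4v3*, 0.0323), and leaving out that library without a block gave the same call (0.0349). The cause of the other moves was not tested. No shared shift of same-numbered libraries was seen among 2D-iH, 2D-iHE and iHLO, whose deviations correlated at -0.158, -0.0493 and 0.0337. Such values cannot show whether the replicate numbers paired the samples.

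Leaving out 1 library at a time gave 8 to 9 called members in 3D against 2D, 7 to 8 in iHLO against 2D-iH and in iHEA against 2D-iHE, 0 to 0 between iHEA and iHLO, 0 to 1 between 2D-iHE and 2D-iH (*Cyp4v3*, without either iHEA library) and 0 to 1 for the interaction (*Cyp3a13*, 0.57, without the first iHEA library). It gave 23 to 24 in adult against fetal liver, 22 to 24 and 21 to 23 in iHLO and iHEA against adult liver, and 5 to 8 in 2D-iH against fibroblasts, where the 5 came without the first 2D-iH library. The rise of *Cyp4f16* in 3D was lost by DESeq2, with the replicate block, with all 14 libraries, and without each of 4 libraries, the second 2D-iH, second 2D-iHE, first iHLO and second iHEA. The shares of all genes called on adding iECs, in 3D, in 2D and in the interaction, also moved up or down as single libraries were left out. With 2 libraries a condition, levels of a few counts limit what the tests can show.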
